A study of Mus musculus with 8 samples.

Results

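Transcripts of 9 genes of iron handling were described in mouse hearts with and without Elmsan1 in the cardiomyocytes: Hamp, Slc40a1, Tfrc, Slc11a2, Hfe, Fth1, Ftl1, Aco1 and Ireb2. They are 9 of the 45706 genes in the count table and were found by their symbols in the GENCODE M21 annotation. The set was chosen by the measured level of Hamp, the hepcidin gene, which was much higher in the knockout hearts, so its level in every comparison with those hearts is a description and carries no test. The other 8 genes were tested.

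Hearts of 8-week-old male mice were sequenced as bulk RNA, 1 library per heart. The knockout group (cKO, n = 4) had the genotype Elmsan1 fl/fl;aMHC-Cre+/-, which joins floxed alleles of Elmsan1, which encodes a scaffold of the MiDAC histone deacetylase complex, to a Cre recombinase transgene under the αMHC (Myh6) promoter, active in cardiomyocytes. The floxed controls (n = 2) were Elmsan1 fl/fl without Cre, and the Cre controls (n = 2) were aMHC-Cre+/- without floxed alleles. The tissue was whole heart, so other cell types keep Elmsan1, and which exons were floxed is not given in the sources used here. Elmsan1 itself was at 12 to 15.5 CPM in the cKO hearts and 25.3 to 28.6 CPM in the controls, where CPM is the count per 1000000 counts of the library, with TMM-scaled library sizes. Library totals ran from 17509564 to 25833259 estimated counts, and mitochondrial transcripts took 22.1 to 29.3% of the counts in cKO and 25.5 to 29.1% in controls. The p-values below measure the spread between these hearts.

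Hepcidin is a peptide hormone made mainly by the liver and also by the heart. It binds ferroportin, the product of Slc40a1 and the route by which iron leaves cells, and causes it to be degraded, so iron stays inside. Cells take up transferrin-bound iron through the transferrin receptor (Tfrc), move it across the endosome membrane through Slc11a2 (DMT1), and store what they do not use in ferritin, a shell of heavy (Fth1) and light (Ftl1) chains. The iron regulatory proteins Aco1 (IRP1) and Ireb2 (IRP2) sense iron and bind hairpins called iron-responsive elements. A hairpin in the 5′ UTR of a bound mRNA blocks its translation, while hairpins in the 3′ UTR of Tfrc mRNA protect it from decay.

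The hairpins are shown because they divide the members by the side of the mRNA on which the regulators act. The motif searched was a C, 5 bases, the loop CAGTG, any base, and 5 bases that pair with the first 5, with G-T pairs allowed. It was searched on the transcript strand in the UTRs of all protein-coding transcripts of GENCODE M21. Windows of 30 bases are printed 5′ to 3′ as DNA, with the loop in capitals.
Fth1 5′ UTR (chr19:9982731-9982760, plus strand): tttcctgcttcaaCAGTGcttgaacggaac
Ftl1 5′ UTR (chr7:45459779-45459808, minus strand): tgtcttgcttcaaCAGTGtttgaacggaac
Slc40a1 5′ UTR (chr1:45925465-45925494, minus strand): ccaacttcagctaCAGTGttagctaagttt
Tfrc 3′ UTR (chr16:32631218-32631247, plus strand): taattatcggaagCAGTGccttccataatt
Tfrc 3′ UTR (chr16:32631597-32631626, plus strand): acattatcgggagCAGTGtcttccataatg
Tfrc 3′ UTR (chr16:32631662-32631691, plus strand): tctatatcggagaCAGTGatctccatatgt
Tfrc 3′ UTR (chr16:32631709-32631738, plus strand): taattatcgggaaCAGTGtttcccataatt
Coordinates are GRCm38. Fth1, Ftl1 and Slc40a1 each held 1 match in the 5′ UTR, and Tfrc held 4 matches in the 3′ UTR. Among the 21877 protein-coding genes searched, 31 (0.142%) held a match in the 5′ UTR and 129 (0.59%) in the 3′ UTR. The other members held no match to these letters. The search required this exact loop and all 5 pairs, so a hairpin of another form would be missed. The 3 genes with the 5′ hairpin did not share a direction in the cKO hearts, since both ferritin chains rose and Slc40a1 fell, as described next. These are mRNA levels, and the 5′ hairpin acts on translation, which was not measured.

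Hamp (ENSMUSG00000050440, chr7:30942368-30944032, minus strand, 3 exons) exceeded all controls in all 4 knockout hearts. The cKO hearts held 15.0, 28.95, 27.1 and 19.7 CPM, the floxed hearts 6.04 and 8.40 CPM, and the Cre hearts 5.999 and 1.60 CPM. The groups did not overlap, and Cre replicate 2 lay well below the other controls. These levels rest on 286 to 634 estimated counts in the knockout hearts, 141 and 171 in the floxed ones, and 158 and 32 in the Cre ones. Means were 22.7 ± 6.49 CPM (SD, n = 4) in cKO and 5.51 ± 2.84 CPM (SD, n = 4) in controls, a difference of 4.28-fold against the mean of the control groups (log2 2.10, SE 0.39). The pooled SD within groups was 0.71 on the log2 scale. Without Cre replicate 1 the log2 difference was 2.73, and without Cre replicate 2 it was 1.77. Against floxed alone Hamp was 3.15-fold higher (log2 1.66, SE 0.49) and against Cre alone 5.81-fold (log2 2.54, SE 0.52), comparisons that share the cKO hearts. The value against Cre rests on 2 unlike hearts and was log2 3.82 without Cre replicate 1 and 1.89 without Cre replicate 2.

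Hamp2, whose product differs from hepcidin in activity and which lies at chr7:30922372-30924681, held 5 to 13 estimated counts in cKO and 0 to 6 in controls and was too low to test. Adding its counts to those of Hamp left the log2 difference at 2.10. Hamp lies 1215 bases from Usf2, a transcription factor gene, which was at 66.8 ± 6.21 CPM in the cKO hearts and 72.5 ± 2.77 CPM in the controls (log2 -0.12, SE 0.09; adjusted p = 0.287), and at log2 -0.45 with the length and GC offset described below (adjusted p = 0.00132). An antisense noncoding gene, Gm44662, overlaps Hamp and was not found in the count table. Without a stated strand setting, it is not known whether reads from Gm44662 were counted to Hamp.

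**Figure D1:**
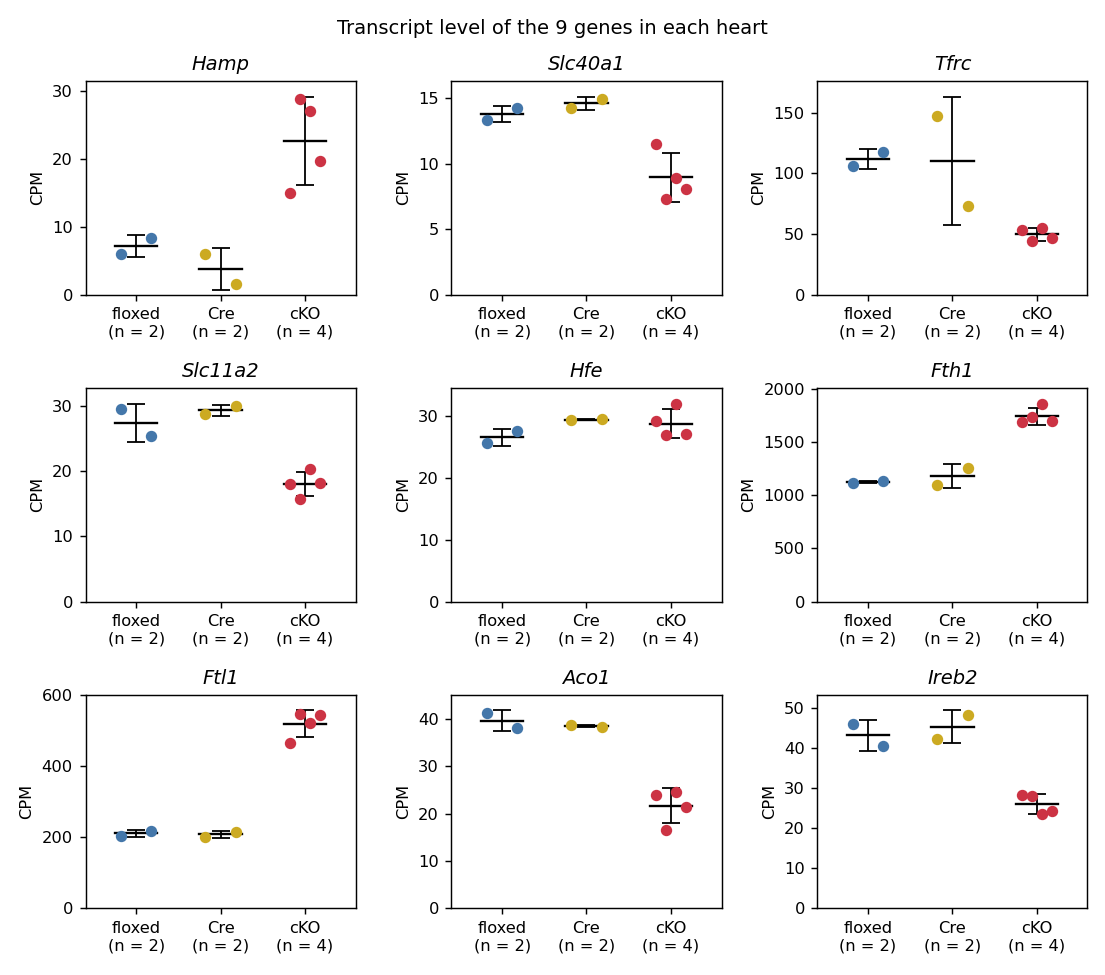
Level of each of the 9 genes in every heart, in CPM on linear axes that start at 0 and differ between panels, with points for single hearts of the floxed (n = 2), Cre (n = 2) and cKO (n = 4) groups and bars for the group mean ± SD. Hamp, Fth1 and Ftl1 lay higher in all cKO hearts than in all controls, Slc40a1, Tfrc, Slc11a2, Aco1 and Ireb2 lay lower, and Hfe overlapped.

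Of the 8 tested genes, 2 rose (Fth1 and Ftl1), 5 fell (Slc40a1, Tfrc, Slc11a2, Aco1 and Ireb2) and 1, Hfe, did not pass the test in cKO against the mean of the control groups (edgeR, quasi-likelihood test, p-values adjusted by Benjamini-Hochberg over 15289 genes). Over all tested genes 25.6% were called higher and 26.5% lower, so calls were frequent in this contrast. In the 2 genes that rose all cKO hearts lay above all controls, a pattern found in 23.4% of all tested genes, and in the 5 that fell all cKO hearts lay below all controls, found in 25.9%. All 9 genes passed the filter on low counts, the lowest at a mean of 11.6 CPM over the 8 hearts. In whole heart, fewer cells of a type and less RNA per cell cannot be told apart.

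Slc40a1, the iron exporter that hepcidin degrades (ENSMUSG00000025993, chr1:45908068-45926523, minus strand), lay lower in all knockout hearts. It stood at 11.5, 7.26, 8.91 and 8.07 CPM in cKO, 13.3 and 14.2 CPM in floxed, and 14.2 and 14.9 CPM in Cre. The gap between the groups was narrow, with cKO replicate 1 nearest to the controls. The fall was 1.59-fold (log2 -0.67, SE 0.14; edgeR, adjusted p = 0.00246). It was the least abundant member per transcript length, at 2.65 ± 0.548 CPM per kilobase in cKO and 4.21 ± 0.196 in controls (SD, n = 4 each). These are mRNA levels, and the degradation of ferroportin by hepcidin acts on the protein, which was not measured.

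Tfrc, the receptor for transferrin-bound iron (ENSMUSG00000022797, chr16:32608920-32632794, plus strand), showed the largest fall of the 9 genes against the mean of the control groups. The cKO hearts were close together, at 53.6, 44.0, 54.8 and 46.9 CPM, while the controls spread from 106 and 117 CPM in floxed to 148 and 72.9 CPM in Cre. The groups did not overlap, although Cre replicate 2, the heart with the lowest Hamp, was also the control with the lowest Tfrc. Tfrc fell 2.23-fold (log2 -1.16, SE 0.19; edgeR, adjusted p = 0.00104). With the length and GC offset Tfrc was at log2 -0.865 (SE 0.205; edgeR, adjusted p = 0.00918), beside -0.846 (SE 0.118) for Aco1. Those falls did not differ beyond their errors. Without Cre replicate 1 and without the offset, Tfrc was at -0.862 and Aco1 at -0.853.

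Slc11a2, the endosomal iron transporter DMT1 (ENSMUSG00000023030, chr15:100387898-100425072, minus strand), was at 17.99, 15.7, 20.3 and 18.1 CPM in cKO, 29.5 and 25.4 CPM in floxed and 28.7 and 29.96 CPM in Cre. All cKO hearts lay below all controls. It fell 1.57-fold (log2 -0.65, SE 0.10; edgeR, adjusted p = 0.000374). Transcripts of both the receptor and the transporter of the transferrin route were therefore lower. A gene that overlaps Slc11a2, Gm5475, held 0 to 2 counts per library.

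Hfe, which binds the transferrin receptor and takes part in iron sensing by the liver (ENSMUSG00000006611, chr13:23702034-23710854, minus strand), overlapped between groups. Its levels were 29.1, 26.9, 31.9 and 27.0 CPM in cKO, 25.6 and 27.5 CPM in floxed, and 29.3 and 29.4 CPM in Cre. The log2 difference was 0.04 (SE 0.09; edgeR, adjusted p = 0.711), well under the changes of the other 8 genes in size.

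Fth1, the heavy chain of ferritin that oxidises iron for storage (ENSMUSG00000024661, chr19:9980598-9985098, plus strand), was the most abundant member in every group. It was at 1689, 1733, 1861 and 1696 CPM in cKO, 1117 and 1129.5 CPM in floxed, and 1098 and 1257 CPM in Cre. The groups were well apart, with an SD of 79.8 CPM in the cKO hearts and 72.2 CPM in the controls. Fth1 rose 1.52-fold (log2 0.60, SE 0.09; edgeR, adjusted p = 0.000309).

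Ftl1, the light chain that supports iron mineralisation (ENSMUSG00000050708, chr7:45457944-45459884, minus strand), was also higher in all cKO hearts. It was at 466, 546, 523 and 544 CPM in cKO, 204 and 218 CPM in floxed, and 202 and 214 CPM in Cre. The control hearts differed little, with an SD of 7.87 CPM around 209.6 CPM. Ftl1 rose 2.48-fold (log2 1.31, SE 0.09; edgeR, adjusted p = 1.34e-05). For every 100 CPM of Fth1 there were 27.6 to 32.1 CPM of Ftl1 in the cKO hearts and 17.1 to 19.3 in the controls, as counted without correction for transcript length. With the length and GC offset the log2 differences of both chains lay within their errors of each other, at 0.604 (SE 0.0805) for Ftl1 and 0.512 (SE 0.0891) for Fth1. The estimated counts of Ftl1 had decimals, and its near-identical pseudogene Ftl1-ps1 had 0.826 ± 0.170 CPM in controls and 3.17 ± 0.656 CPM in cKO (log2 1.94, SE 0.25), so the split of reads between them is uncertain.

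Both iron regulatory protein genes fell, which completes the members by role. Aco1 (ENSMUSG00000028405, chr4:40143081-40198338, plus strand), which is the cytosolic aconitase when it holds an iron-sulfur cluster and binds RNA when it does not, was at 23.99, 16.55, 24.7 and 21.4 CPM in cKO, 41.2 and 38.2 CPM in floxed, and 38.7 and 38.3 CPM in Cre. The fall was 1.80-fold (log2 -0.85, SE 0.12; edgeR, adjusted p = 0.000204). Ireb2 (ENSMUSG00000032293, chr9:54863789-54912530, plus strand), whose protein is degraded when iron is plentiful, was at 28.4, 28.1, 23.5 and 24.3 CPM in cKO, 46.0 and 40.5 CPM in floxed, and 42.4 and 48.3 CPM in Cre. It fell 1.70-fold (log2 -0.76, SE 0.10; edgeR, adjusted p = 0.000113). Neither gene overlapped between groups.

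**Figure D2:**
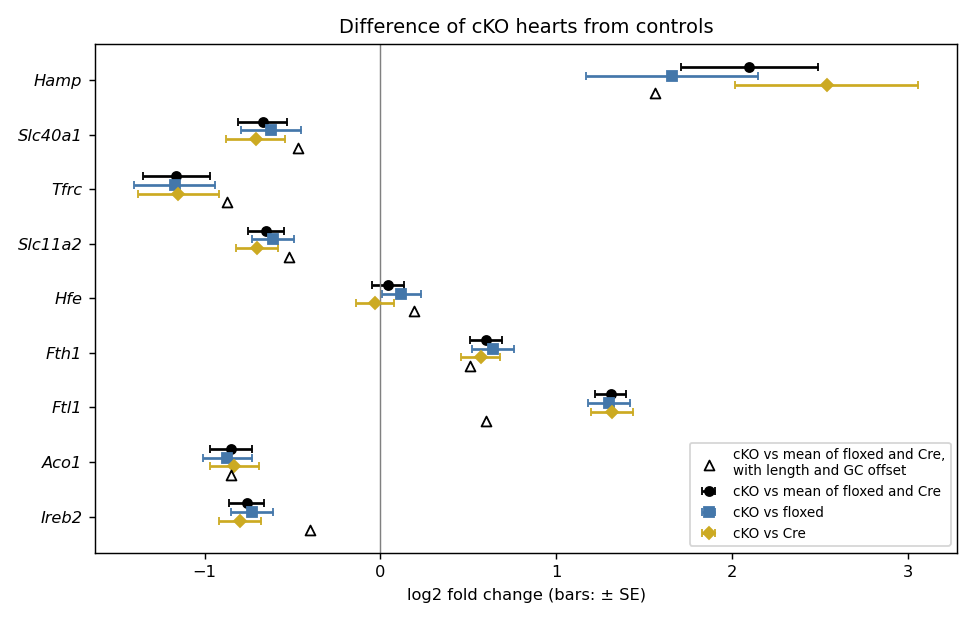
Log2 fold change of each member in cKO against the mean of the control groups, against floxed and against Cre, with bars of 1 SE from the edgeR fit of 8 hearts, and the first contrast with the length and GC offset. Ftl1 reads 1.31 without and 0.60 with the offset, and Hamp, chosen for its rise, is shown as a description.

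The direction of each of the 7 genes that changed was the same against either control group. The same 2 genes were called higher and the same 5 lower against floxed, where 42.9% of all tested genes were called, 19.8% higher and 23.1% lower, and against Cre, where 42.4% were called, 19.6% higher and 22.8% lower. The 2 comparisons share the cKO hearts, with Aco1 at log2 -0.87 against floxed and -0.83 against Cre, Ftl1 at 1.3 and 1.32, and Tfrc at -1.17 and -1.15. The value of Tfrc against Cre averages 2 hearts far apart, and was -0.548 without Cre replicate 1 and -1.6 without Cre replicate 2 (edgeR, adjusted p = 0.025 and 0.0013). Slc40a1 had the largest adjusted p of the 7 against floxed (log2 -0.62; edgeR, adjusted p = 0.0126), and without floxed replicate 1 or 2 the adjusted p was 0.0579 or 0.0952. Slc11a2 against floxed had an adjusted p of 0.053 without floxed replicate 1.

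Between the control groups, none of the 9 genes was called in Cre against floxed by edgeR at an adjusted p of 0.05, and none had an unadjusted p under 0.05. Over all genes 0.0981% were called in either direction, 0.00654% higher and 0.0916% lower. Hamp, which can be tested here because the cKO hearts do not enter, had the largest difference of the 9 (log2 -0.88, SE 0.57; adjusted p = 1), with Cre replicate 2 as the low value. It was at log2 -2.18 without Cre replicate 1 (adjusted p = 0.508) and -0.239 without Cre replicate 2 (adjusted p = 1). The pair of hearts in each group limits what this comparison can detect.

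The members differ in transcript length, from 410 bases for Hamp to 5770 for Ireb2, so the contrast was also fitted with a term for length. The lengths printed here are of the principal coding transcript in the annotation. The term itself used the length and GC content of the longest transcript of each gene, which can differ. With that term, an offset fitted in each library for length and GC content, all 7 calls kept their direction and passed the test. Calls stayed frequent over all genes, with 3255 of 15289 called higher and 3673 lower with the offset. Ftl1, with 968 bases, moved from log2 1.31 to 0.60 (edgeR, adjusted p = 0.000198), a reduction of the fold by more than 1.5 times. Ireb2 moved from -0.76 to -0.40 and Hamp from 2.10 to 1.56, whereas Aco1 stayed at -0.85 and Fth1 was at 0.51. The median over all tested genes was 0.0438 with the scaling used, 0.155 with upper-quartile scaling and 0.168 with library size alone.

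Per kilobase of transcript the order of the members was led by the ferritin chains in both conditions. Fth1 was at 1168 ± 53.4 CPM per kilobase in cKO and 769.9 ± 48.3 in controls, and Ftl1 at 537 ± 38.5 and 217 ± 8.13 (SD, n = 4 each). Hamp was the third in cKO, at 55.4 ± 15.8 CPM per kilobase, with Tfrc next at 10.2 ± 1.06. In the controls the order was the other way round, Tfrc at 22.7 ± 6.31 and Hamp at 13.4 ± 6.92, within reach of each other's spread. Hfe, Slc11a2, Aco1, Ireb2 and Slc40a1 followed in cKO between 8.05 and 2.65 CPM per kilobase, and Slc11a2 and Aco1, at 5.96 ± 0.625 and 5.65 ± 0.963, did not differ beyond their spread there.

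The genes whose pattern over the 8 hearts was most like that of Hamp were Gm5640, Tbx6, Nat8f3, Sds and Myl4. Likeness was measured as the root mean square difference of log2 CPM deviations from each gene's own mean, over 13159 tested genes with a symbol and a mean of at least 1 CPM, and read 0.408, 0.451, 0.466, 0.482 and 0.487. The gene in the next place, at 0.490, was Myl7, which was singled out after its value was seen because it and Myl4 encode the atrial myosin light chains. As a description over 8 hearts, this likeness includes the difference between cKO and controls that chose Hamp.

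The atrial cardiomyocyte markers Myl7 and Myl4, picked for their likeness to Hamp, shared its highest and lowest hearts but not its whole order. Myl7 was at 631, 1474, 938 and 1169 CPM in cKO, 366 and 372 CPM in floxed, and 466 and 182 CPM in Cre, and Myl4 was at 814, 1741, 1185 and 1593 CPM, then 474 and 500.01, then 554 and 234. In both genes, as in Hamp, cKO replicate 2 was the highest heart, cKO replicate 1 the lowest of its group and Cre replicate 2 the lowest of all. Choosing the markers by likeness over these same hearts favours such agreement. The order differed elsewhere, since Hamp was higher in cKO replicate 3 than in cKO replicate 4, and both markers were lower. Among controls Hamp was highest in floxed replicate 2, and both markers in Cre replicate 1. Both stood 3.04-fold higher in cKO (log2 1.61, SE 0.36 for Myl7 and 0.33 for Myl4). With the length and GC offset Myl7 was at log2 0.89 and Myl4 at 1.59. The likeness to Hamp that singled them out includes this difference, so it is a description and carries no test. Per 1000 CPM of Myl7 there were 16.9 to 28.9 CPM of Hamp in cKO and 8.83 to 22.6 in controls, which overlap. Per 1000 CPM of Myl4 there were 12.4 to 22.9 and 6.85 to 16.8. Of 15 atrial markers 8 rose (Nppa, Myl4, Myl7, Sln, Nr2f1, Nr2f2, Stard10 and Dkk3), none fell and 7 did not pass. Myl4 and Myl7, singled out by likeness, are among those that rose and enter the median and sum below. Over all tested genes 25.6% were called higher and 26.5% lower. The median log2 difference of the atrial markers was 0.74, and their summed level was 5959 to 12006 CPM in the cKO hearts and 2821 to 4681 CPM in the controls. The atrial marker Bmp10 was at log2 -0.63 (adjusted p = 0.34) and Kcnj3 at -0.06 (adjusted p = 0.764). Nppa is also a stress gene of the ventricle. The part of the atrial share of the tissue in the level of Hamp was not tested.

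**Figure D3:**
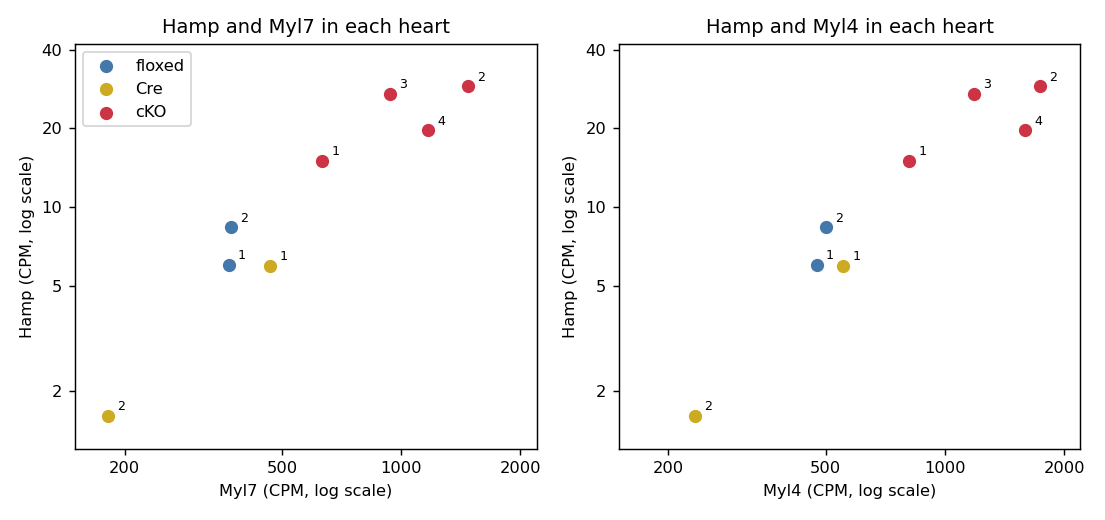
Level of Hamp against Myl7 and against Myl4, in CPM on log axes, 1 point per heart (4 cKO, 2 floxed, 2 Cre). cKO replicate 2 is highest and Cre replicate 2 lowest for each of the 3 genes, and no line was fitted.

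Markers of other cells that make hepcidin or handle much iron were measured beside the members. The counts below stand beside 25.6% of all tested genes called higher and 26.5% called lower. For hepatocytes, the main source of hepcidin, 4 of 13 markers were high enough to test and 3 of these rose (Apoa2, Ahsg and Cyp2e1), with a summed level of 49.2 to 79.0 CPM in the cKO hearts and 38.5 to 56.8 CPM in the controls. The defining genes were near 0, since Alb had a mean of 0.229 CPM in cKO and 0 in controls, and Fgb and Fgg were at 0 in every library. Of 15 macrophage markers 8 rose and none fell, with sums of 390 to 500.5 CPM in the cKO hearts and 259 to 319 CPM in the controls. Macrophages recycle iron and hold much Slc40a1 and ferritin, and their part in the ferritin rise was not tested. Of 9 erythroid markers none rose and 2 fell, with no globin gene called, and their sums overlapped, at 625 to 1420 CPM in the cKO hearts and 754 to 1040 CPM in the controls. Ventricular markers summed to 55924 to 65479 CPM in the cKO hearts and 67969 to 72966 CPM in the controls, with 4 of 12 higher (Myl2, Myl3, Tnni3 and Ckm) and 4 lower (Irx4, Ryr2, Atp2a2 and Pln), and 7 of 10 endothelial markers rose and 1, Kdr, fell, with sums of 1600 to 2255 CPM against 1049 to 1325 CPM. With the length and GC offset 1 hepatocyte marker was called higher, and 1 ventricular marker was called higher and 5 lower, while Kdr was at log2 -0.18 (adjusted p = 0.218).

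The wider iron pathway was read from 8 lists with 146 genes, of which 134 were tested, and 42 rose, 38 fell and 54 did not pass (35 higher and 34 lower with the offset). That is 59.7% called, beside 52.1% of all tested genes in either direction. With the offset 3255 of all 15289 tested genes were called higher and 3673 lower. Each list held genes that rose and genes that fell, and the median log2 differences of the lists lay between -0.29 and 0.28, beside 0.0438 over all genes.

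The BMP branch carries the main signal for hepcidin in the liver, where BMP ligands and the co-receptor hemojuvelin act through SMAD proteins. Of 22 tested genes of this list 6 rose (Eng, Smad1, Id1, Id2, Id3 and Atoh8), 7 fell (Bmpr1a, Bmpr2, Acvr2a, Neo1, Smad5, Smad4 and Twsg1) and 9 did not pass, with a median of -0.20. Smad5 went from log2 -0.46 to -0.05 with the length and GC offset (adjusted p = 0.662). The ligand genes Bmp2 and Bmp6 did not pass, with Bmp6 at 16.5 ± 5.77 CPM in the cKO hearts and 18.8 ± 1.53 CPM in the controls (log2 -0.19, adjusted p = 0.496, and -0.433 with an adjusted p of 0.0389 without cKO replicate 1) and Bmp2 at 2.10 ± 0.404 and 1.94 ± 0.852 CPM (log2 0.13, adjusted p = 0.757). The receptor gene Bmpr1a fell 2.07-fold, from 72.3 ± 3.48 to 34.9 ± 6.25 CPM with cKO replicate 1 highest of its group at 44.2 CPM, and Neo1, which binds hemojuvelin, 2.09-fold, from 75.2 ± 7.24 to 36.1 ± 2.30 CPM (SD, n = 4 each). With the length and GC offset Bmpr1a was at log2 -0.685 and Neo1 at -0.676, both still called lower. Hemojuvelin itself (Hfe2) was at log2 -0.20 (adjusted p = 0.0612), and at -0.50 with the length and GC offset (adjusted p = 0.000606).

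Among the transcripts that BMP signalling induces, Id3 lay higher in all cKO hearts than in all controls. Id1, Smad6 and Smad7 depended on the controls or single hearts. Id3 was at 55.2, 76.1, 72.3 and 90.2 CPM in cKO, 44.0 and 40.5 CPM in floxed and 28.8 and 26.9 CPM in Cre, 2.14-fold higher in cKO (log2 1.10, SE 0.13). The floxed hearts lay nearer to the cKO hearts than the Cre hearts did. With the length and GC offset Id3 was at log2 0.586 (SE 0.1; edgeR, adjusted p = 0.000857). Id1 was called at log2 0.64 (edgeR, adjusted p = 0.0132) but rests on the Cre hearts, at 21.1 and 26.3 CPM, while the floxed hearts, at 51.7 and 53.7 CPM, lay among the cKO hearts at 35.5 to 66.1 CPM. Against floxed alone Id1 was at log2 0.06 (adjusted p = 0.843), and in the main contrast without Cre replicate 1 its adjusted p was 0.0521. With the length and GC offset Id1 was at log2 0.11 (adjusted p = 0.569). Smad6 (log2 0.32, adjusted p = 0.0824) and Smad7 (log2 0.14, adjusted p = 0.215), which encode inhibitors in the same loop, did not pass, though without cKO replicate 1 Smad6 had an adjusted p of 0.0146.

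The inflammatory branch drives hepcidin through interleukin 6, its receptor and STAT3. Of 14 tested genes 2 rose (Osmr and Cebpa), 5 fell (Il6st, Jak1, Jak2, Stat3 and Hif1a) and 7 did not pass, with the lowest median of the 8 lists, -0.29. Jak2 went from log2 -0.33 to -0.03 with the length and GC offset (adjusted p = 0.788). Il6 was too low to test. Stat3 fell 1.53-fold, from 117 ± 8.62 to 76.8 ± 3.86 CPM, and Il6st, the shared receptor chain gp130, 1.54-fold, though with the length and GC offset Il6st was at log2 -0.17 (adjusted p = 0.0825). Hif1a, an oxygen-regulated transcription factor outside that cascade, fell 1.98-fold. Cebpa, a factor that binds the hepcidin promoter in liver, was at 11.4 to 27.7 CPM in the cKO hearts and 7.96 to 12.2 CPM in the controls (log2 0.94; edgeR, adjusted p = 0.0209), and with the offset the adjusted p was 0.129. Its adjusted p was 0.0668, 0.0682 and 0.0742 without floxed replicate 1, floxed replicate 2 and Cre replicate 2.

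Beside Tfrc and Slc11a2, the uptake list had 4 of 16 tested genes higher (Lcn2, Slc22a17, Cd44 and Slc11a1) and 4 lower (Slc39a14, Steap3, Steap4 and Cacna1c). With the length and GC offset 4 were called higher and 1 lower and the list median went from -0.15 to 0.13, with Cacna1c at log2 -0.16 (adjusted p = 0.209), Steap3 at -0.21 (adjusted p = 0.0696) and Lcn2 at 0.55 (adjusted p = 0.183). Slc39a14, a carrier of iron that is not bound to transferrin, fell 1.41-fold, with overlapping groups (adjusted p = 0.0158, and 0.0983 with the offset). Without cKO replicate 2, floxed replicate 1 or Cre replicate 2 its adjusted p was 0.0502, 0.0531 or 0.0513. Steap4, a metalloreductase, fell 1.57-fold, from 30.4 ± 2.94 to 19.4 ± 3.72 CPM. Slc22a17, a receptor for the iron-carrying lipocalin Lcn2, rose 2.19-fold, from 3.68 ± 1.29 to 8.01 ± 1.52 CPM. Transferrin itself (Trf) was at log2 0.31 (adjusted p = 0.0562), and at an adjusted p of 0.0269 without cKO replicate 1 and 0.0485 without floxed replicate 2. Slc11a1, the macrophage counterpart of Slc11a2, rose 1.78-fold where Slc11a2 fell, beside the macrophage markers given above.

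Around ferritin and export, 3 of 12 tested genes rose (Pcbp3, Pcbp4 and B2m) and 5 fell (Ncoa4, Cp, Fbxl5, Herc2 and Prnp). Ncoa4 delivers ferritin to the lysosome for iron release, and was at 41.8, 37.1, 40.6 and 39.5 CPM in cKO, 65.7 and 66.4 CPM in floxed, and 65.1 and 78.2 CPM in Cre. The groups were clearly apart, and the fall was 1.73-fold (log2 -0.79, SE 0.09; edgeR, adjusted p = 5.09e-05). Fbxl5, the iron sensor that targets Ireb2 protein for degradation, fell 1.34-fold (adjusted p = 0.00185, and 0.0751 with the offset), beside the 1.70-fold fall of Ireb2 mRNA. Cp, the ferroxidase that works with Slc40a1, fell 1.57-fold (adjusted p = 0.0113, and 0.0749 with the offset). The calls of Pcbp4 and Herc2 were also lost with the offset, at log2 -0.16 and -0.12 (adjusted p = 0.168 and 0.268).

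Iron users were mixed. In heme synthesis 5 of 14 genes rose (Alad, Urod, Ppox, Tmem14c and Pgrmc1) and 5 fell (Alas1, Cpox, Fech, Abcb10 and Clpx). Alas1, the rate-limiting enzyme outside the erythroid line, was at 104, 81.5, 109 and 118 CPM in cKO, 199 and 199 CPM in floxed, and 163 and 193 CPM in Cre, a fall of 1.83-fold (log2 -0.87, SE 0.12). Fech, which inserts iron into the ring, fell 2.09-fold, from 121 ± 8.36 to 57.7 ± 6.25 CPM, and Clpx and Abcb10 fell 2.12-fold and 1.86-fold, while Ppox, the enzyme just before Fech, rose 2.05-fold. With the offset Fech was at log2 -0.663 and was still called, while the call of Tmem14c was lost (log2 -0.18, adjusted p = 0.132). The erythroid enzyme Alas2 was at log2 0.23 (adjusted p = 0.478). In heme breakdown and transport 5 of 12 rose (Hmox1, Blvra, Blvrb, Flvcr1 and Abcg2) and 2 fell (Flvcr2 and Bach1), with Blvrb, a biliverdin reductase, up 2.28-fold and Flvcr2, a membrane transporter, down 2.28-fold. Blvrb was at log2 0.824 with the offset and was still called. The call of Bach1 was lost with the offset (log2 -0.01, adjusted p = 0.923), without both floxed libraries (adjusted p = 0.114) and in 3 other alternatives. Hmox1, which frees iron from heme, was at 4.89 to 10.7 CPM in the cKO hearts and 4.57 to 5.54 CPM in the controls (log2 0.66; edgeR, adjusted p = 0.0206), and with the offset the adjusted p was 0.21. Without cKO replicate 3, floxed replicate 1, floxed replicate 2 or Cre replicate 2 its adjusted p was 0.0653, 0.0597, 0.066 or 0.0704.

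Iron-sulfur cluster assembly was the longest list, with 16 of 31 tested genes higher, 7 lower and 8 not called, and 11 higher and 9 lower with the length and GC offset. Both mitochondrial iron importers rose, Slc25a37 1.49-fold and Slc25a28 1.63-fold. In the list on iron-driven lipid peroxidation 1 of 13 rose and 3 fell (Acsl4, Lpcat3 and Tfam), of which Acsl4 had an adjusted p of 0.0491 (0.55 with the offset) that ranged from 0.0525 to 0.124 without any 1 of the libraries other than cKO replicate 1. The gene that rose was Gpx4, the enzyme that reduces lipid peroxides, at 764 ± 65.9 CPM in the cKO hearts and 348 ± 41.3 CPM in the controls (log2 1.14, SE 0.10), and at log2 0.37 with the offset (adjusted p = 0.0211).

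**Figure D4:**
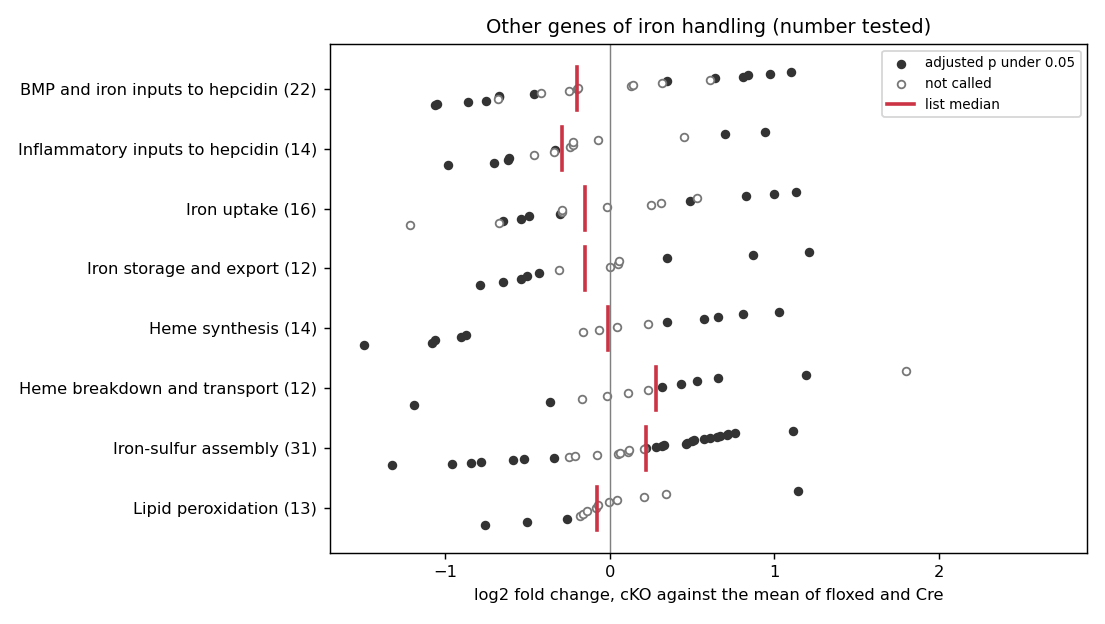
Log2 fold change of each tested gene of the 8 iron pathway lists in cKO against the mean of the control groups, 1 point per gene, filled where the adjusted p was under 0.05, with a bar at the list median. Each list holds genes on both sides of 0, and the medians lie between -0.29 and 0.28.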

How the data were processed

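Values are estimated counts of genes in 8 hearts, in 1 table that the authors deposited; 71.95 to 76.34% of the values above 0 were whole within 1e-06. STAR 2.5.1b, DESeq2, and the builds mm10 and GRCm38 are listed in the submitters' processing notes, without their roles. Not given in the sources used here are the counting program, annotation and strand setting, so overlapping or near-identical genes may share reads. Symbols, positions and transcripts were taken from GENCODE M21 (563 identifiers had no symbol).

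The estimated counts were rounded, filtered with filterByExpr (15289 genes) and scaled by TMM, since the test needs counts. All 8 libraries were fitted with 3 group means (5 residual degrees of freedom) by edgeR 4.0.16 in R 4.3.3, and each contrast by its quasi-likelihood test, with p-values adjusted by Benjamini-Hochberg over all genes, at 0.05. The main contrast compares cKO with the average of both control groups, weighted equally. The procedure was tested on simulated data. CPM values use TMM-scaled library sizes.

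Some items are not reported here. The members and lists were chosen with earlier results of these data known. Named were the members, Hamp2, Elmsan1, up to 4 called genes with the smallest p and at least 1 CPM per list, 23 preset genes where tested, and the 5 genes most like Hamp; the lists of risers and fallers and the markers with values go beyond that rule and were named after their values were seen. Trf, Hfe2, Fdx1l and Narfl are the older symbols of Tf, Hjv, Fdx2 and Ciao3. Alternatives were other scalings and filters, DESeq2 1.42.0, limma 3.58.1 voom, no robust fit, a replicate block, other control sets, fits of only the groups compared, leaving out each library, Hamp with Hamp2, and an offset for the length and GC content of transcripts (mgcv 1.9.3). Figures were drawn with matplotlib 3.10.9.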

Additional observations from a re-analysis of the deposited data

Results flagged for a closer look

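Bmpr1a, the BMP receptor gene, stood apart in 1 cKO heart. It was at 44.2 CPM in cKO replicate 1 and at 30.7 to 32.8 CPM in the other cKO hearts, and the gap to the nearest heart was 0.844 of the range of the group, above Dixon's 95% critical value for 4 samples. All 4 cKO hearts still lay below the controls, at 67.1 to 74.5 CPM. In all 59 genes were checked in this way, and chance marks about 1 in 20 groups.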

How the results depend on the processing

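Over the 8 tested members, 166 of 168 alternative values of the main contrast kept their direction and their side of the threshold. The 2 others reversed Hfe, which was not called, to log2 -0.0279 without both floxed libraries and -0.00521 without cKO replicate 3, in a range from there to 0.0785 over the left-out libraries. Against Cre, Hfe ran from -0.0773 to 0.00621 when libraries were left out (0.0019 without cKO replicate 4), and read 0.128 under the offset for length and GC. Of the members, 3 to 5 were called lower against floxed when single libraries were left out, and the low count came without floxed replicate 1, with fewer samples. The log2 difference of Hamp ran from 1.77 to 2.73 when libraries were left out. Relative to Myl7 it was 0.608 and relative to Myl4 0.614, alternatives chosen after seeing the data.

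Some pathway genes also reversed, called ones among them. Bmp2 was at log2 -0.111 without both Cre libraries, -0.014 without floxed replicate 1 and -0.172 without Cre replicate 2, the low end of a range up to 0.631, and Smad7 at -0.0221 without both Cre libraries. With the offset Smad6 was at -0.0587, Il6ra at 0.11, Alas2 at -0.00409 and Acsl4 at 0.072. Pcbp4 and Tmem14c, called higher without the offset, were below 0 with it and not called, as given above. The cause was not tested.

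The replicate numbers were not shown to pair the hearts, with correlations of same-numbered libraries from -0.108 to 0.133, and numbers 3 and 4 occur only in cKO. The numbers are those of the sample titles; the library names number the floxed hearts 2 and 3, and a block on those was not fitted. With the replicate block Hamp was at log2 2.03, and the calls of 2 members higher and 5 lower stayed in the main contrast. Slc40a1 against floxed had an adjusted p of 0.0534 with the block. Hamp rests on as few as 32 estimated counts in Cre replicate 2, and each control group had 2 hearts, which limits what a difference between them can show.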
